A study of Mus musculus with 18 samples.

Results

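The genes described here are 9 complement components and regulators: C1qa, C1qb, C1qc, C4b, C3, Cfb, C3ar1, Serping1 and Cd55. They were taken by symbol from 48529 genes whose transcript estimates were summed, all 9 were found, and all 9 passed the filter on low counts that left 15774 genes for testing. RNA came from whole lumbar dorsal root ganglia (DRG), which hold the cell bodies of sensory neurons along with glia, blood vessels and immune cells. In the MM group, 9 male C57BL/KaLwRijHsd mice carried 5TGM1-GFP cells, a mouse myeloma line marked with a fluorescent protein and placed in the femur. In the SHAM group, 9 male mice of that strain received vehicle in the femur. All mice were 5 to 7 weeks old by their labels, ganglia of the operated side were taken on day 24 after surgery, and several lumbar ganglia of a mouse were extracted together. A single tumour line was used, and the labels name no batch, so library preparation could not be examined as a term.

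Complement is a cascade of plasma and tissue proteins that tags surfaces for uptake, draws in immune cells and can lyse membranes. In the classical pathway C1q binds a target and its proteases cleave C4 and C2; the alternative pathway amplifies the cleavage of C3 through factor B. Membrane and secreted inhibitors limit each step. The liver makes most plasma complement, whereas in neural tissue C1q is known chiefly as a product of macrophages and microglia.

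Promoter stretches are shown because the C1q genes rose and Cd55 did not pass the test. RefSeq (GRCm38.p6) gave a sequence for 5 of the 9 genes: C1qb, C1qc, C3, C3ar1 and Cd55. The 250 bases before the annotated start were read on the gene's strand, which is the minus strand for each. C1qb lies at chr4:136886201-136886450, C1qc at chr4:136892915-136893164, C3 at chr17:57228137-57228386 and Cd55 at chr1:130462745-130462994. These positions belong to GRCm38.p6 and not to the build the authors used. Capitals mark letters matching a PU.1 core (GAGGAA) or a C/EBP site (TTNNGNAA), each searched on both strands, so one stretch can match in both directions.
C1qb: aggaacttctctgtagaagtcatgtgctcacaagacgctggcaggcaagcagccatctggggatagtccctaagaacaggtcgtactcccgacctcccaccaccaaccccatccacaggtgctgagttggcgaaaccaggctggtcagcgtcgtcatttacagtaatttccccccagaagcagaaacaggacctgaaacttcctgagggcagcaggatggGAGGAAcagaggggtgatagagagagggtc
C1qc: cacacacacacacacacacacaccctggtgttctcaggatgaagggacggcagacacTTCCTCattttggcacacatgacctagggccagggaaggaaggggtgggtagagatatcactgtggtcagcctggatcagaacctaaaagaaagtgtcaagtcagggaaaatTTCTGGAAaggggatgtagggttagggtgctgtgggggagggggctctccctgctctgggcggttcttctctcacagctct
C3: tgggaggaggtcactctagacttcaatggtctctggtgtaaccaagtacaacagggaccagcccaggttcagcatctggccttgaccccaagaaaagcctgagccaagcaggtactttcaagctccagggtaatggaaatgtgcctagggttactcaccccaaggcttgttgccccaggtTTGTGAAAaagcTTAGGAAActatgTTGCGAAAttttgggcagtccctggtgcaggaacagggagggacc
Cd55: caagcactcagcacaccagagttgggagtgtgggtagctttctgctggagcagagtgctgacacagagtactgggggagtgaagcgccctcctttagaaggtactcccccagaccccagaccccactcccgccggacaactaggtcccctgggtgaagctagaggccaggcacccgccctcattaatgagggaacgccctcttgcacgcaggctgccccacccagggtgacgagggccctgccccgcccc
C1qb held the PU.1 core with its first base at -30, and C1qc held it on the opposite strand at -193. Such a core stands in 23.4% of 32536 promoter stretches of this length. C3 held C/EBP letters at -70, -58 and -45, the last of these in both directions, and C1qc held them at -81. These letters occur in 36.8% of promoter stretches. Neither motif was found in the Cd55 or C3ar1 stretch. A GAS element (TTCNNNGAA, in 7.04% of stretches) and an interferon-stimulated response element (in 2.98%) matched none of the 5. These are matches of letters and say nothing of binding.

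MM and SHAM were compared to learn how complement transcripts in ganglia supplying the tumour-bearing limb differed from those of vehicle-treated mice. All 3 C1q chains rose, by between 1.34 and 1.45 on the log2 scale, and no other member passed the test. Cfb, C3ar1, C3 and C4b had positive fold changes that did not pass, Serping1 differed little on average, and Cd55 was slightly lower without passing. Across all tested genes 2.75% passed the test with a higher level in MM (edgeR adjusted p under 0.05), and 0.241% with a lower one. Of the 9 members, 3 rose, 0 fell and 6 did not pass. An unadjusted edgeR p under 0.05 with a higher level in MM was found for 7 members, against 13.9% of all tested genes, and 2.99% of tested genes passed in either direction. The median log2 fold change was 1.34 over the members and -0.0042 over all tested genes. The groups overlapped for every member; among all tested genes 0.120% had every MM library above every SHAM library.

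The MM libraries were uneven, and this bears on each result. MM5 had the highest level of 8 of the 9 members among 18 libraries, as it had for 17.8% of tested genes. MM5, MM9 and MM8 were the 3 highest libraries for C1qa, C1qb, C1qc, C4b and C3ar1. The same libraries held the most Ighg2b, among 9 tested plasma cell and myeloma markers of which 8 rose. Ighg2b is the constant region of an immunoglobulin heavy chain expressed by the myeloma cells, and stood at 2197 CPM in MM5, 4374 CPM in MM9 and 2334 CPM in MM8 (CPM, read counts scaled to library size by TMM). In the other MM libraries Ighg2b ran from 11.7 CPM in MM2 to 389.9 CPM in MM4, and it lay at 16.4 CPM or less in SHAM libraries. MM2 thus lay under SHAM9 at 16.4 CPM and SHAM5 at 14.8 CPM. MM2 was also the lowest MM library for each C1q chain. In bulk tissue, a change in the number of cells of a type and a change in RNA per cell cannot be told apart.

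**Figure D1:**
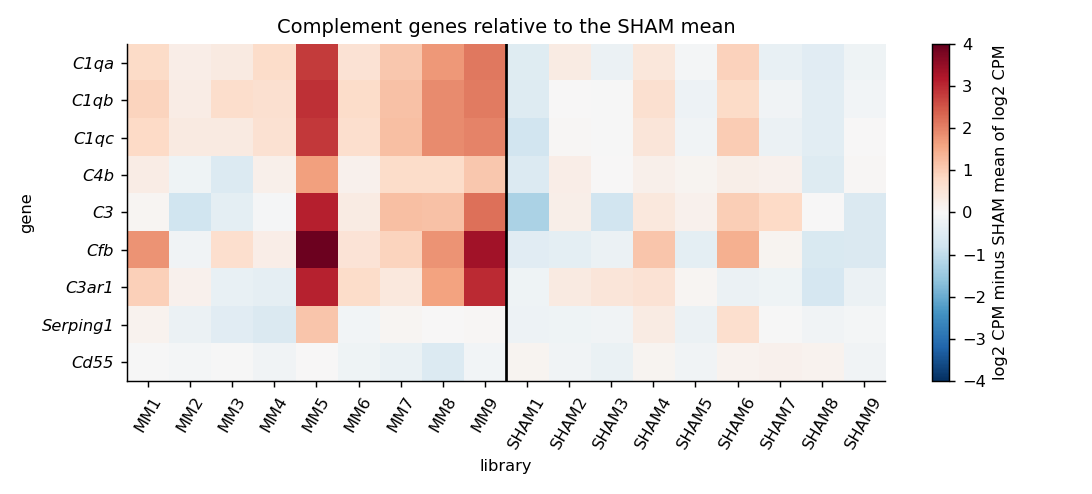
Level of each complement gene (rows) in each library (columns, MM left of SHAM), as log2 CPM minus the SHAM mean of log2 CPM. MM5, MM8 and MM9 carry the darkest red for the C1q chains, Cd55 stays pale throughout, and SHAM6 is the warmest SHAM column for the C1q chains and Cfb.

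C1q is the recognition molecule of the classical pathway, assembled from equal numbers of A, B and C chains whose genes stand next to each other. C1qa (ENSMUSG00000036887) ranged from 15.3 to 88.0 CPM with a median of 21.5 CPM in MM libraries, and from 9.01 to 24.1 CPM with a median of 11.2 CPM in SHAM libraries. All 9 MM libraries lay above the SHAM median and 4 lay above the highest SHAM library. Its mean was 33.9 ± 24.2 CPM in MM, against 13.4 ± 4.94 CPM in SHAM (n = 9 each, SD), with a log2 fold change of 1.34 ± 0.33 (SE; edgeR adjusted p = 0.0366).

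C1qb (ENSMUSG00000036905) ranged from 16.7 to 103 CPM with a median of 24.8 CPM in MM, and from 9.38 to 22.9 CPM with a median of 12.6 CPM in SHAM. Here 5 MM libraries exceeded every SHAM library, and the lowest MM library, MM2, lay under the 2 highest SHAM libraries, SHAM6 at 22.9 CPM and SHAM4 at 20.8 CPM. C1qb averaged 38.5 ± 27.8 CPM in MM, against 14.0 ± 4.64 CPM in SHAM (n = 9 each, SD), and its log2 fold change was 1.45 ± 0.32 (SE; edgeR adjusted p = 0.0263). C1qc (ENSMUSG00000036896) ranged from 12.1 to 67.1 CPM with a median of 16.5 CPM in MM, and from 5.65 to 19.3 CPM with a median of 9.39 CPM in SHAM. It averaged 25.9 ± 18.2 CPM in MM, against 10.1 ± 4.03 CPM in SHAM (n = 9 each, SD), and rose by 1.36 ± 0.33 on the log2 scale (SE; edgeR adjusted p = 0.0366). For each chain all 9 MM libraries stood above the SHAM median, which held for 4.89% of tested genes.

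**Figure D2:**
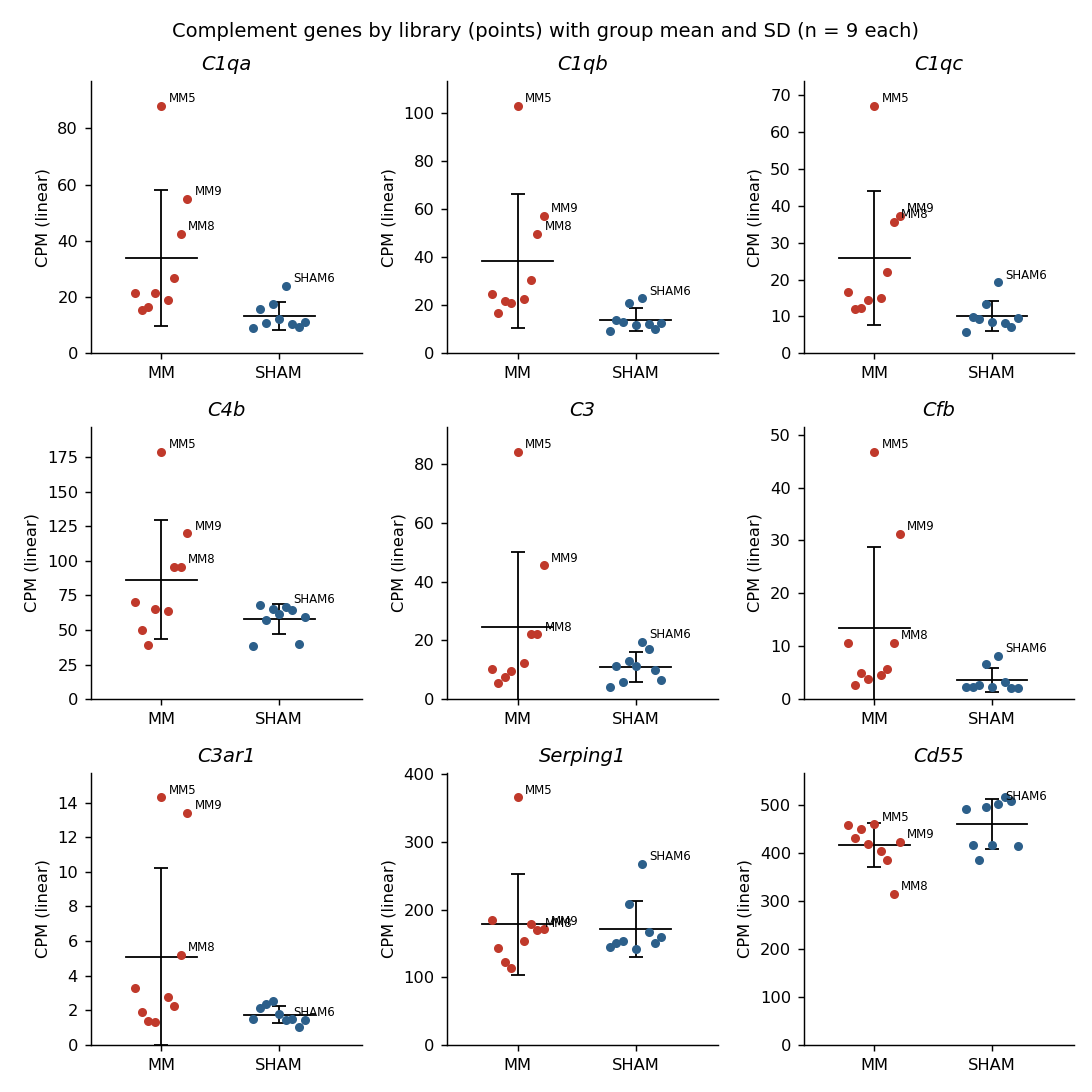
Level of each complement gene in every library in CPM on linear axes, MM left of SHAM; horizontal lines are group means and bars SDs (n = 9 each), cut at 0 where the SD exceeds the mean. For C1qb the MM points run from 16.7 to 103 CPM and the SHAM points from 9.38 to 22.9 CPM, with MM5, MM9 and MM8 on top.

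The calls for the C1q chains depended on single libraries. Each was lost on leaving out any single library among MM5, MM8, MM9 and all SHAM libraries but SHAM4 and SHAM6; over all leave-one-out fits the adjusted p lay between 0.0157 and 0.0807 for C1qa, 0.00924 and 0.0590 for C1qb, and 0.0165 and 0.0806 for C1qc. Without MM5, MM8 and MM9 the log2 fold changes were 0.58 ± 0.21 for C1qa, 0.70 ± 0.19 for C1qb and 0.61 ± 0.23 for C1qc (SE; edgeR adjusted p = 0.358, 0.182 and 0.373; unadjusted p = 0.0155, 0.00255 and 0.0174). These 3 libraries were picked for their immunoglobulin transcripts and are also the highest for each chain, so leaving them out lowers the MM level by construction. In the other 6 MM libraries C1qb ran from 16.7 to 30.3 CPM. Of 13 macrophage markers 5 rose (Cd68, Aif1, Ms4a7, Ctss and Fcer1g), where 2.75% of all tested genes did, and 8 did not pass. Among those 8, Cx3cr1 had a log2 fold change of -0.11, and Lyz2 and Cd163 of 0.25 each. The rest were higher: Csf1r 0.58, Tyrobp 0.83, Mrc1 0.90, Adgre1 1.04 and Laptm5 1.15. Of the 13 markers, 12 had positive fold changes (median 1.04) and 10 had an unadjusted edgeR p under 0.05. Their summed level ran from 125 to 668 CPM in MM and from 78.4 to 247 CPM in SHAM; it was 668 CPM in MM5, 530.3 CPM in MM9 and 324 CPM in MM8, and SHAM6 was the highest SHAM library. None of the 13 was at 0 throughout. The part of macrophage number or of tumour load in the C1q difference was not tested.

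**Figure D3:**
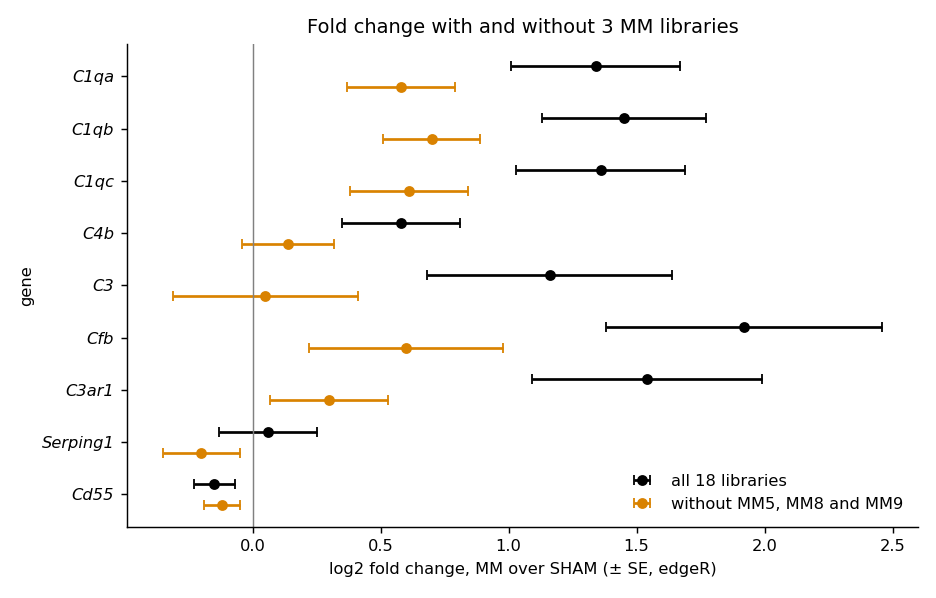
Log2 fold change, MM over SHAM, with its SE from edgeR for each complement gene, with all 18 libraries (black) and without MM5, MM8 and MM9 (orange). The C1q chains stand at 1.34 to 1.45 with all libraries and at 0.58 to 0.70 without those 3, while C3 stands at 1.16 with all libraries and at 0.05 without them.

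Because C1q takes its chains in equal numbers, the share of each chain was compared per transcript length (TPM, a length-scaled abundance). C1qa held 37.1 ± 1.76% of summed C1q TPM in MM, against 38.2 ± 2.52% in SHAM (n = 9 each, SD). C1qb held 39.6 ± 1.83% in MM, against 38.1 ± 2.17% in SHAM, and C1qc 23.3 ± 1.16% in MM, against 23.6 ± 1.66% in SHAM. The differences of -1.19, 1.48 and -0.29 percentage points did not pass a 2-sided exact permutation test (p = 0.261, 0.138 and 0.671; adjusted over the 3 chains 0.392, 0.392 and 0.671). In each group C1qc had the smallest share, with no library above 25.8%, against no library under 34.7% for C1qa or 35.0% for C1qb. The summed level of the chains ran from 44.1 to 258 CPM in MM and from 24.0 to 66.2 CPM in SHAM.

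C4b encodes C4, the thioester protein that activated C1 cleaves. C4b (ENSMUSG00000073418) ranged from 39.3 to 179 CPM with a median of 69.9 CPM in MM, and from 38.7 to 68.3 CPM with a median of 61.5 CPM in SHAM. MM5, MM9, MM8, MM7 and MM1 lay above every SHAM library, while MM3 and MM2 lay under the SHAM median. It averaged 86.4 ± 42.7 CPM in MM, against 57.9 ± 11.2 CPM in SHAM (n = 9 each, SD; log2 fold change of 0.58 ± 0.23, SE; edgeR adjusted p = 0.157). Its close paralog C4a held 77 reads over all MM libraries and 46 over all SHAM libraries after the estimator had divided shared reads; how reads were assigned between the paralogs was not tested.

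C3 is the protein on which all pathways converge, and Cfb, factor B, is the protease precursor that joins it in the alternative convertase. C3 (ENSMUSG00000024164) ranged from 5.62 to 84.2 CPM with a median of 12.4 CPM in MM, and from 4.05 to 19.4 CPM with a median of 11.1 CPM in SHAM. Only 5 of 9 MM libraries stood above the SHAM median, and the mean was carried by MM5 at 84.2 CPM and MM9 at 45.5 CPM. Means were 24.4 ± 25.5 CPM in MM, against 10.9 ± 5.09 CPM in SHAM (n = 9 each, SD; log2 fold change of 1.16 ± 0.48, SE; edgeR adjusted p = 0.167). Without MM5, MM8 and MM9 the log2 fold change of C3 was 0.05 ± 0.36 (SE; edgeR adjusted p = 0.985).

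Cfb (ENSMUSG00000090231) had the largest fold change of the 9 genes in the main edgeR fit of all 18 libraries. It ranged from 2.76 to 46.8 CPM with a median of 5.70 CPM in MM, and from 2.02 to 8.24 CPM with a median of 2.36 CPM in SHAM. Every MM library lay above the SHAM median, and MM5, MM9, MM1 and MM8 above every SHAM library. Cfb averaged 13.4 ± 15.3 CPM in MM, against 3.53 ± 2.28 CPM in SHAM (n = 9 each, SD), with a log2 fold change of 1.92 ± 0.54 (SE; 95% interval 0.78 to 3.06; edgeR adjusted p = 0.0594). Without MM5, MM8 and MM9 the log2 fold change of Cfb was 0.60 ± 0.38 (SE, edgeR adjusted p = 0.664), under 0.70 for C1qb and 0.61 for C1qc. With limma it was 1.18, under 1.25 for C1qb. In SHAM libraries Cfb rested on 38 to 172 estimated reads. Hepatocyte markers were all under 1 CPM in every library, and their summed level was at most 1.24 CPM in MM and 1.58 CPM in SHAM.

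C3ar1 is the receptor for C3a, the small fragment released when C3 is cleaved. C3ar1 (ENSMUSG00000040552) ranged from 1.32 to 14.3 CPM with a median of 2.79 CPM in MM, and from 1.06 to 2.54 CPM with a median of 1.5 CPM in SHAM. MM5 at 14.3 CPM and MM9 at 13.4 CPM stood far above MM8 at 5.19 CPM, and the other MM libraries did not exceed 3.30 CPM. It averaged 5.10 ± 5.11 CPM in MM, against 1.75 ± 0.494 CPM in SHAM (n = 9 each, SD; log2 fold change of 1.54 ± 0.45, SE; edgeR adjusted p = 0.0687). The SHAM values rest on 20 to 52 estimated reads per library. A second tool, DESeq2, called Cfb (adjusted p = 0.0104) and C3ar1 (adjusted p = 0.0113) besides the C1q chains; it called 5.85% of genes higher in MM.

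Serping1 encodes C1 inhibitor, which blocks the proteases C1r and C1s. Serping1 (ENSMUSG00000023224) ranged from 113 to 366 CPM with a median of 169.7 CPM in MM, and from 142 to 268 CPM with a median of 153 CPM in SHAM. Apart from MM5, which stood alone at 366 CPM, the MM libraries lay at or under 185 CPM, and the next highest of all libraries were SHAM6 at 268 CPM and SHAM4 at 209 CPM. Means were 178 ± 74.8 CPM in MM, against 172 ± 41.4 CPM in SHAM (n = 9 each, SD; log2 fold change of 0.06 ± 0.19, SE; 95% interval -0.34 to 0.45; edgeR adjusted p = 0.882). The sign turned without MM5, to -0.15 (edgeR adjusted p = 0.581), and per transcript length the mean was lower in MM. Fibroblast markers were highest in the same 3 libraries, summing to 3526 CPM in MM5, 2478 CPM in SHAM6 and 1849 CPM in SHAM4; 0 of their 8 genes passed the test, and their part in the Serping1 level was not tested.

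Cd55, decay-accelerating factor, is a membrane protein that breaks up the convertases and is carried by sensory neurons among other cells. Cd55 (ENSMUSG00000026399) ranged from 315 to 459 CPM with a median of 423 CPM in MM, and from 384 to 515 CPM with a median of 491 CPM in SHAM. No MM library reached the SHAM median, as for 4.13% of tested genes, but the groups overlapped widely because SHAM2, SHAM3, SHAM5 and SHAM9 lay at or under 416 CPM. It averaged 416 ± 45.1 CPM in MM, against 459.9 ± 51.5 CPM in SHAM (n = 9 each, SD; log2 fold change of -0.15 ± 0.08, SE; 95% interval -0.31 to 0.01; edgeR adjusted p = 0.264). Of 12 neuron markers 0 passed the test, and 11 had negative fold changes. Their summed level ran from 9051 to 18821 CPM in MM and from 14036 to 18127 CPM in SHAM, and MM5 was the lowest library. Among MM libraries Cd55 was highest in MM5, at 459 CPM. It was lowest in MM8, at 315 CPM, where the neuron markers summed to 15614 CPM. The part of neuron content in the Cd55 level was not tested. The paralog Cd55b held 8 reads over MM and 7 over SHAM libraries.

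Per transcript length, Cd55 and Serping1 had the highest means in each group. In MM the mean TPM was 323 ± 40.9 for Cd55, 217 ± 75.7 for Serping1, 75.0 ± 48.7 for C1qb, 70.3 ± 45.0 for C1qa, 44.1 ± 27.9 for C1qc, 30.2 ± 13.0 for C4b, 11.6 ± 10.2 for Cfb, 9.44 ± 8.45 for C3 and 1.94 ± 1.80 for C3ar1 (SD, n = 9). In SHAM it was 367 ± 30.8 for Cd55, 225 ± 50.5 for Serping1, 29.9 ± 11.0 for C1qa, 29.5 ± 9.64 for C1qb, 21.1 ± 4.40 for C4b, 18.6 ± 7.32 for C1qc, 4.89 ± 2.39 for C3, 4.06 ± 1.49 for Cfb and 0.736 ± 0.227 for C3ar1 (SD, n = 9). In SHAM libraries, ranges of neighbours in this order did not overlap between Serping1 and C1qa, C1qc and C3, or Cfb and C3ar1. The other neighbours in SHAM, and all neighbours in MM, overlapped in range across libraries. In MM, Serping1 ran from 150.1 to 402 TPM, against up to 189 TPM for C1qb, and both highest values came from MM5. Within single MM libraries the order held throughout for Serping1 over C1qb, C1qa over C1qc, C1qc over C4b, C4b over Cfb and C3 over C3ar1. It was reversed for Cd55 and Serping1 in MM5, C1qb and C1qa in MM4 and MM9, and Cfb and C3 in MM2, MM6 and MM7. C3 TPM includes a short second transcript with a mean of 6.41 estimated reads in MM and 3.88 in SHAM, which adds 1.81 TPM in MM and 1.20 TPM in SHAM.

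Of the members, 6 have at least 2 transcripts in the files, and the share of the leading transcript in each gene's TPM was tested as a readout apart from gene level. Serping1-201, the protein-coding transcript, held 79.2 ± 2.80% of Serping1 TPM in MM (range 74.9% to 83.4%) and 75.7 ± 2.07% in SHAM (range 72.3% to 78.1%; SD, n = 9 each). The difference of 3.53 points passed a 2-sided exact permutation test (p = 0.00712; adjusted over 6 genes 0.0231), and it stood between 3.01 and 4.07 points with any 1 library left out. Without MM5, MM8 and MM9 it was 2.42 points and did not pass (exact permutation p = 0.0428, adjusted 0.128). Nearly all of the rest was a transcript of 903 bases annotated as processed, at 42.7 ± 10.4 TPM in MM, against 53.1 ± 9.90 TPM in SHAM (n = 9 each, SD), while Serping1-201 itself was at 173 ± 65.9 TPM in MM, against 171 ± 41.4 TPM in SHAM. Counted as reads in place of TPM, the share of Serping1-201 differed by 1.95 points (exact permutation p = 0.00596, adjusted 0.0237). Transcript shares of genes outside the members were not tested, so no background rate is given for this difference.

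The share of C1qc-201 also differed, at 99.8 ± 0.225% in MM, against 99.2 ± 0.565% in SHAM (n = 9 each, SD; exact permutation p = 0.00769, adjusted 0.0231). That difference rests on a second transcript, which averaged 0.684 estimated reads in MM and 1.15 in SHAM, fewer than the 3 counts taken as the limit of detection, so it is a statement about single reads. Cd55-201 held 82.4 ± 0.978% in MM, against 82.4 ± 1.16% in SHAM (n = 9 each, SD; exact permutation p = 0.907, adjusted 0.995). C4b-201 held 87.9 ± 5.86% in MM, against 90.0 ± 5.28% in SHAM (n = 9 each, SD; exact permutation p = 0.438, adjusted 0.876). C3-201 and Cfb-201 did not pass either (exact permutation p = 0.995 and 0.667, adjusted 0.995 for both); the share of Cfb-201 ran from 0% to 79.8% between MM libraries, with 8 overlapping transcripts among which short reads divide poorly.

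**Figure D4:**
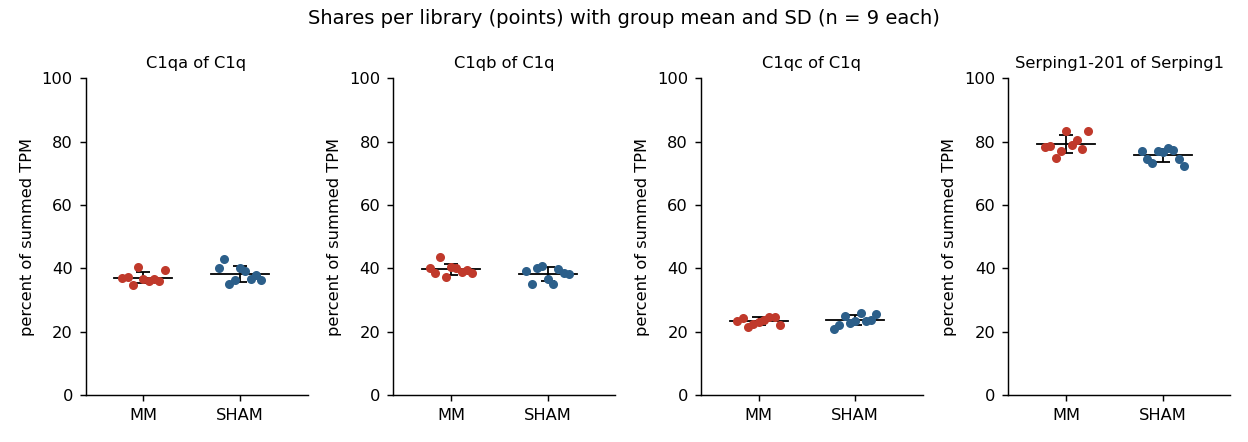
Share of each C1q chain in summed C1q TPM and share of Serping1-201 in Serping1 TPM, in percent, by library, MM left of SHAM; lines are means and bars SDs (n = 9 each). The chain shares overlap between groups, while Serping1-201 averages 79.2% in MM and 75.7% in SHAM.

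A list of 45 other complement genes was followed by role, and 27 of them passed the filter. Of these 2 rose, 0 fell and 25 did not pass, against 2.75% of all tested genes that rose and 0.241% that fell. The median log2 fold change of the 27 was 0.07. Both genes that rose were receptors: of 5 receptor genes tested 2 rose and 3 did not pass. Itgb2, the shared beta chain of complement receptors 3 and 4, averaged 17.0 ± 16.8 CPM in MM, against 4.18 ± 2.49 CPM in SHAM (n = 9 each, SD; log2 fold change of 2.02 ± 0.51, SE; edgeR adjusted p = 0.0427), and all 9 MM libraries stood above the SHAM median. Cd93, a membrane glycoprotein of endothelial and myeloid cells once described as a C1q receptor, averaged 33.9 ± 27.5 CPM in MM, against 13.4 ± 2.60 CPM in SHAM (n = 9 each, SD). Its log2 fold change was 1.33 ± 0.35 (SE, edgeR adjusted p = 0.0485), and 8 MM libraries stood above the SHAM median. At least 8 MM libraries did so for 13.0% of all tested genes, and all 9 for 4.89%.

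Both receptor calls were lost on leaving out any single library among MM5, MM8, MM9 and all SHAM libraries but SHAM6, where the edgeR adjusted p lay between 0.0635 and 0.113. Over all leave-one-out fits the log2 fold change lay between 1.67 and 2.30 for Itgb2, and between 1 and 1.45 for Cd93. Without MM5, MM8 and MM9 together the log2 fold changes were 0.59 for Itgb2 and 0.38 for Cd93 (edgeR adjusted p = 0.600 and 0.403). C5ar1, the C5a receptor, had a log2 fold change of 1.51 ± 0.43, Itgax, the alpha chain of complement receptor 4, of 1.47 ± 0.43, and Itgam, the alpha chain of complement receptor 3, of 1.04 ± 0.40 (SE; edgeR adjusted p = 0.0617, 0.0690 and 0.143). Endothelial markers, of which 0 of 7 passed the test, summed to between 85.4 and 347 CPM in MM and between 88.8 and 238 CPM in SHAM. All 7 had positive fold changes (median log2 of 0.32), and 1 had an unadjusted edgeR p under 0.05. Neutrophil markers, of which 0 of 7 tested passed, summed to between 19.9 and 112 CPM in MM and between 19.7 and 269.8 CPM in SHAM. Of the 7, 2 had positive and 5 negative fold changes (median log2 of -0.69), and 1 had an unadjusted edgeR p under 0.05.

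Outside the receptors no other complement gene passed. Among 4 classical and lectin pathway genes, C1ra, the C1r protease, had a log2 fold change of 0.78 ± 0.35 and Masp1, a protease of the lectin pathway, of -0.15 ± 0.07 (SE; edgeR adjusted p = 0.199 and 0.203). Cfp, properdin, which stabilises the alternative convertase, was at 6.92 ± 6.26 CPM in MM, against 3.27 ± 1.12 CPM in SHAM (n = 9 each, SD; log2 fold change of 1.08 ± 0.40, SE; edgeR adjusted p = 0.127). Hc, mouse C5, was at 1.14 ± 0.362 CPM in MM, against 1.38 ± 0.469 CPM in SHAM (n = 9 each, SD; edgeR adjusted p = 0.492). Of the terminal components C8g and C7 were tested and averaged under 1 CPM in each group (edgeR adjusted p = 0.579 and 0.883). Among 13 regulators tested the lowest p belonged to Csmd1, a membrane regulator of the nervous system, at 65.1 ± 10.4 CPM in MM, against 78.8 ± 9.82 CPM in SHAM (n = 9 each, SD; log2 fold change of -0.28 ± 0.10, SE; edgeR adjusted p = 0.112), followed by its relative Csmd3 at -0.48 ± 0.20 (SE; edgeR adjusted p = 0.177). No MM library of Csmd1 lay above the SHAM median. Of the 18 genes left untested, Fcna, Fcnb, Colec11 and C5ar2 reached 1 CPM in at least 1 library and 14 stayed under it in every library, among them the mannose-binding lectins Mbl1 and Mbl2 and the terminal components C6, C8a, C8b and C9.

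**Figure D5:**
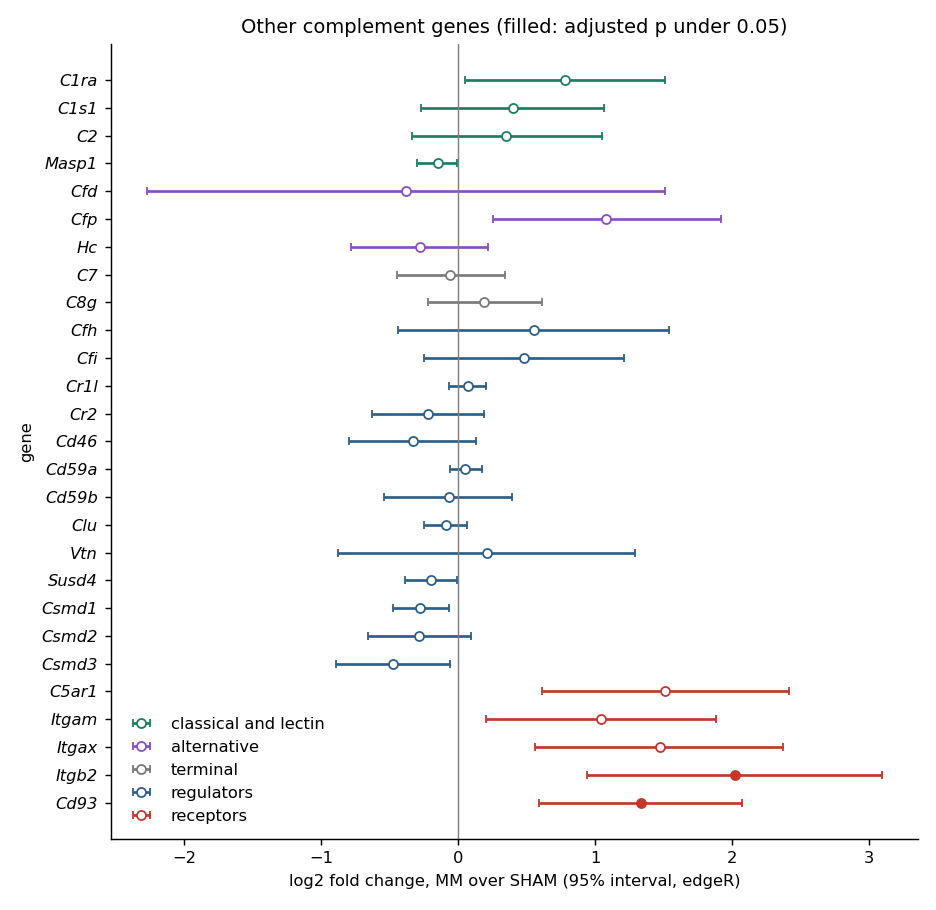
Log2 fold change, MM over SHAM, with its 95% interval from edgeR for 27 other complement genes, coloured by role; filled points passed the test. Only Itgb2 and Cd93 are filled, the 5 receptors lie between 1.04 and 2.02, and most regulators lie near 0.

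Genes with the most similar pattern were sought by the mean of Spearman's rho within the 9 MM and within the 9 SHAM libraries, over 14758 genes with a mean of at least 1 CPM. As the highest of so many values on 9 libraries a group, these are descriptions only. Lfng and Slc2a10 came first for C1qb, each at 0.967, and for C1qc, each at 0.950. Alad (0.950) and Ctsc (0.933) came first for C1qa. Tcirg1 (0.967) and Ctsh (0.917) stood nearest to C4b, Lyar and P4hb (each 0.942) to C3, and Grn (0.967) and Adgre5 (0.958) to Cfb. Tnfaip3 (0.900) and Enkd1 (0.883) stood nearest to C3ar1, Adamts2 (0.975) and Prrx2 (0.950) to Serping1, and Ms4a3 (0.942) to Cd55.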

How the data were processed

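Total RNA from 18 libraries, each 1 mouse by the series design (9 MM, 9 SHAM), was sequenced on DNBSEQ instruments, per the labels' protocols. The authors deposited, per transcript, an estimated count of reads and TPM from Salmon 1.5.2 on GRCm39, per the submitters' processing notes; index and options are not given in the sources used here. The authors also deposited a normalized signal per gene made with DESeq2, used here as an alternative.

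Estimated counts were summed per gene through GENCODE M21 transcript numbers (a GRCm38 annotation, used for names) and rounded. Of 137562 transcripts, 3620 had no gene there and held 0.85% to 1.339% of reads per library. Libraries held 19218249 to 21771206 estimated reads; 3 counts, the limit at a count of 0, equal 0.140 to 0.160 CPM. Genes were kept by filterByExpr, scaled (TMM) and entered into edgeR 4.0.16 (R 4.3.3; quasi-likelihood, robust), group as the only term, Benjamini-Hochberg adjusted p under 0.05 over all tested genes. The procedure was tested on simulated data. For edgeR, counts were drawn around the SHAM means, with an equal change in every MM library. That setting does not hold the unevenness of the MM libraries, so it does not show how the calls behave under it. Alternatives used DESeq2 1.42.0 and, on log2(value + 1) of the deposited normalized signal for genes with a mean of at least 10, limma 3.58.1. Shares were compared over all 48620 assignments of libraries with Python 3.11.15, where the smallest p is 4.11e-05. Reads cannot be assigned to strand from these files.

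The members and the lists were chosen with earlier results of these data known. Named genes were all members, other complement genes that passed or had the 2 lowest p per role, and the 2 genes most like each member, of which 1 is not reported here; Itgam and the untested genes named were added after their values were seen.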

Additional observations from a re-analysis of the deposited data

Results flagged for a closer look

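MM5 stood apart from the other MM libraries for 3 members. C1qb was at 103 CPM, C1qc at 67.1 CPM and Serping1 at 366 CPM in MM5, and the gap to the next MM library took 0.531, 0.541 and 0.718 of the whole MM range. Each gap exceeded the limit of Dixon's test for 9 libraries. For normally spread values chance flags about 1 in 20 groups, and 18 groups were examined. The MM values were skewed, as for C1qb with a mean of 38.5 CPM and a median of 24.8 CPM, so this rate need not hold here. The C1qb and C1qc flags are also not independent (Spearman's rho of 0.983 within MM). In MM5 the summed Schwann cell markers were 17499 CPM, against at most 10768 CPM in the other MM libraries and 13089 CPM in SHAM libraries, and the summed neuron markers were 9051 CPM, against at least 11943 CPM elsewhere. Their part in the MM5 values was not tested.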

How the results depend on the processing

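Without MM5, MM8 and MM9, 60 genes passed in place of 471, of which 0 were members (3 members in the main result) and 0 other complement genes (2 in the main result). Without SHAM7 and SHAM8 the counts were 35 genes, 0 members and 0 other complement genes. DESeq2 called 1388 genes, 5 members and 4 other complement genes, limma on the authors' normalized values 219, 1 and 0, and edgeR with no filter on low counts 333, 0 and 0, where C1qb had an adjusted p of 0.0502. Leaving out 1 library at a time gave 84 to 1014 genes, 0 to 5 members and 0 to 4 other complement genes; 84 genes passed without MM5 and 1014 without MM2. With the replicate number as a block, 8 genes, 0 members and 0 other complement genes passed. The labels do not say whether equal numbers pair the mice. Same-numbered libraries correlated between -0.276 and 0.339, and 0 MM libraries correlated best with their own number. MM libraries also varied in tumour transcripts that SHAM libraries hardly held, so low correlations cannot exclude pairing. At an unadjusted p under 0.05, 7 members were higher in MM in the main result. With DESeq2 size factors 451 genes passed.

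The log2 fold change of Serping1, 0.06, turned to -0.0022 with the replicate block, to -0.20 without MM5, MM8 and MM9 and to -0.03 with limma, and lay between -0.15 and 0.16 over single libraries left out. The other members kept their sign throughout. The difference in C1qc-201 share did not pass without MM5, MM8 and MM9 (0.63 points, exact permutation adjusted p = 0.128) or with the replicate block (0.61 points, adjusted p = 0.117), nor did that of Serping1-201 without MM5, MM8 and MM9 (2.42 points). The Cfb-201 difference turned to -6.95 points without MM5, MM8 and MM9 and that of Cd55-201 to 0.81 points by reads; with single libraries left out, Cd55-201 lay between -0.24 and 0.25 points and C3-201 between -4.12 and 5.16 points. The causes were not tested.

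Low counts limit C3ar1 and Cfb, whose SHAM values rest on 20 and 38 reads in the lowest libraries, and dividing reads among the overlapping Cfb transcripts. Nothing in the labels separates preparation from group.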

Other observations

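The levels of some transcripts of the members are given here, and none of these was tested singly. Cd55-205, annotated as a retained intron, was at 12.6 ± 2.54 TPM in MM, against 18.3 ± 3.50 TPM in SHAM, and a processed transcript of 721 bases was at 10.2 ± 1.70 TPM in MM, against 12.7 ± 1.36 TPM in SHAM. Cd55-204, a second protein-coding transcript, was at 33.7 ± 5.60 TPM in MM, against 32.8 ± 5.42 TPM in SHAM. A retained intron of C4b, 749 bases long, was at 3.36 ± 2.12 TPM in MM, against 1.66 ± 0.879 TPM in SHAM (n = 9 each, SD). That transcript averaged 20.5 estimated reads in MM and 9.07 in SHAM. Among SHAM libraries, SHAM6 had the highest level of C1qa, C1qb, C1qc, C3, Cfb and Serping1. Of 7 erythroid markers tested 6 fell in MM, and SHAM6 had the most of them summed, 3022 CPM against at most 274 CPM in MM libraries and 1094 CPM in the other SHAM libraries. Satellite glia markers summed to between 2574 and 3812 CPM in MM and between 3159 and 3773 CPM in SHAM, Schwann cell markers to between 3892 and 17499 CPM in MM and between 2816 and 13089 CPM in SHAM and adipocyte markers to between 1.43 and 30.6 CPM in MM and between 2.12 and 48.6 CPM in SHAM; 0 of 7, 0 of 7 and 0 of 3 tested genes of these lists passed.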
